A study of Mus musculus with 2 samples.

Results

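Histone acetylation is controlled by enzymes that add the mark, enzymes that remove it, proteins that bind it, and scaffolds that carry the removing enzymes to genes. Such genes were examined here in haematopoietic stem cells (HSCs), which maintain blood formation for life. The set held 33 genes chosen by name: 10 acetyltransferases, 11 zinc-dependent histone deacetylases, 7 sirtuins, 2 bromodomain readers and 3 corepressor scaffolds. All 33 were found among the 28009 genes for which transcript values could be summed. Polyadenylated RNA of adult and fetal HSCs had been sequenced within a project on genome folding at these stages. For the adult stage there are 2 samples, replicates 1 and 2, sorted from marrow of B6129SF1 mice at 6 to 8 weeks of age. The fetal HSCs came from liver at embryonic day 14.5, according to the protocol, and are represented here by table columns only. The sources used here do not state the sort markers, the animals per library or the strain of the fetuses.

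Acetyl groups on histone lysines loosen contacts between nucleosomes and are read by bromodomain proteins, which bring transcription machinery to promoters and enhancers. Zinc-dependent deacetylases and the NAD-dependent sirtuins take the groups off again, and many zinc-dependent enzymes do so within corepressor complexes built on NCOR or SIN3 proteins. In blood stem cells the acetyltransferases CBP, p300 and MOZ and the deacetylases HDAC1 and HDAC2 are known from mouse knockouts to be needed for self-renewal or survival.

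The values are the authors' mean FPKM (fragments scaled by feature length and by library total), in a transcript table and a gene table, each with a column headed BM for bone marrow and a column headed FL for fetal liver. Transcript values were summed per gene. Each column is a mean without replicate values, so replicate error is unknown for every difference below, as is sequencing depth. Genes that reached 1 FPKM in BM or in FL are called expressed. A relative log2 ratio is log2 of BM plus 0.1 over FL plus 0.1, less the median gene's ratio of 0.01. A gene is called higher or lower where this ratio reaches 2-fold. Fetal-stage genes separated the columns of the transcript table: Lin28b, an RNA-binding regulator of fetal HSCs, was at 0.304 FPKM in BM and 8.51 FPKM in FL. In the gene table Lin28b was at 9.65 FPKM under the header BM and 8.33 FPKM under FL, so the headers of that table cannot be taken as stages. The comparison of adult with fetal HSCs below therefore uses the transcript table.

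The sorted fractions differed in markers of other cells. Of 12 HSC markers 9 were within 2-fold in the transcript table and 3 were higher in BM. The summed level of the 12 was 971 FPKM in BM and 637 FPKM in FL. The summed level of 10 macrophage markers was 7.06 FPKM in BM and 267 FPKM in FL, and all 10 were lower in BM. The sum over 12 erythroid markers was 105 FPKM in BM and 814 FPKM in FL, with 11 lower and Alas2 listed at 0 in BM. The remaining one, Car1, was higher, at 44.2 FPKM in BM and 16.9 FPKM in FL. The 7 hepatocyte markers summed to 13.3 FPKM in BM and 41.5 FPKM in FL, with 6 lower. The 8 endothelial markers summed to 42.6 FPKM in BM and 60.3 FPKM in FL, with 4 lower. The 10 neutrophil and monocyte markers summed to 206 FPKM in BM and 612 FPKM in FL, with 8 lower, and the 8 proliferation genes to 336 FPKM in BM and 693 FPKM in FL, with 5 lower. The 7 megakaryocyte markers summed to 900 FPKM in BM and 207 FPKM in FL, with 4 higher. The part of these differences in the values below was not tested. In such pooled material fewer cells of a type and less RNA per cell cannot be told apart.

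Most histone acetylation genes were at like levels in adult and fetal HSCs. Of the 33, 2 were at least 2-fold higher in BM, Hdac11 and Hdac9, and none was lower. Among all 12220 expressed genes 13.3% were higher and 8.82% were lower, so the share of the set called higher, 6.06%, lies under the background. The median relative log2 ratio was 0.09 over the 33 genes and 0.02 over all expressed genes. The median size of the ratio without its sign was 0.22 in the set and 0.49 over all expressed genes. Ratios within 0.5 of zero were held by 25 of 33 members (75.8%) and by 51.2% of all expressed genes. Among genes at 5 FPKM or more in either column the background was 9.25% higher and 6.45% lower. The set's summed level was 1138 FPKM in BM and 1109 FPKM in FL.

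**Figure D1:**
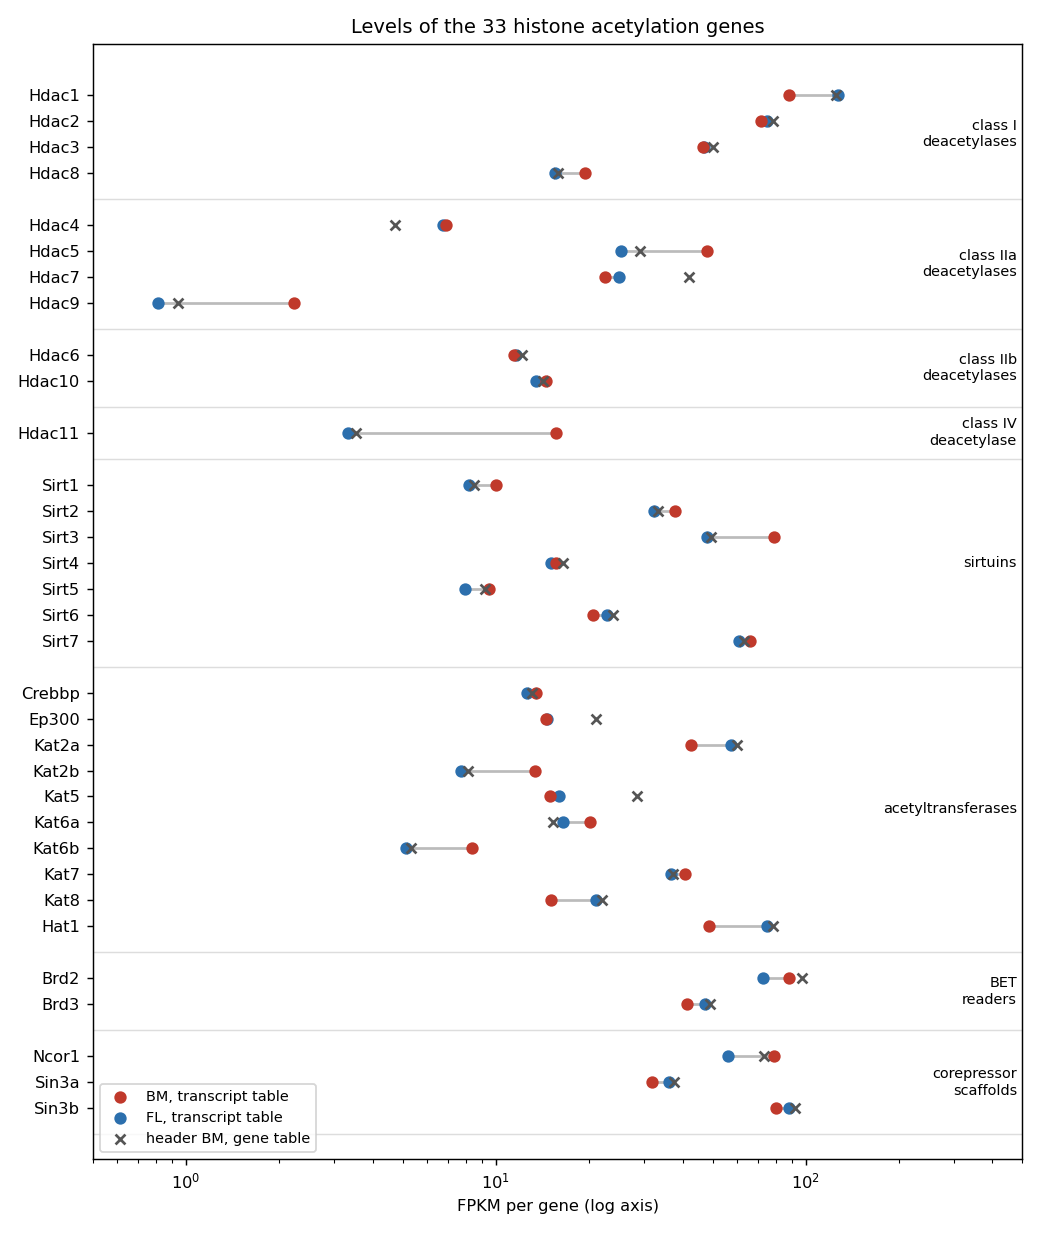
FPKM per gene on a log axis for the 33 genes, grouped by role; red points are BM and blue points FL of the transcript table, and crosses are the gene table column headed BM. The line between the points is longest for Hdac11, at 15.6 FPKM in BM and 3.32 FPKM in FL, while the points of most other genes lie close together.

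**Figure D2:**
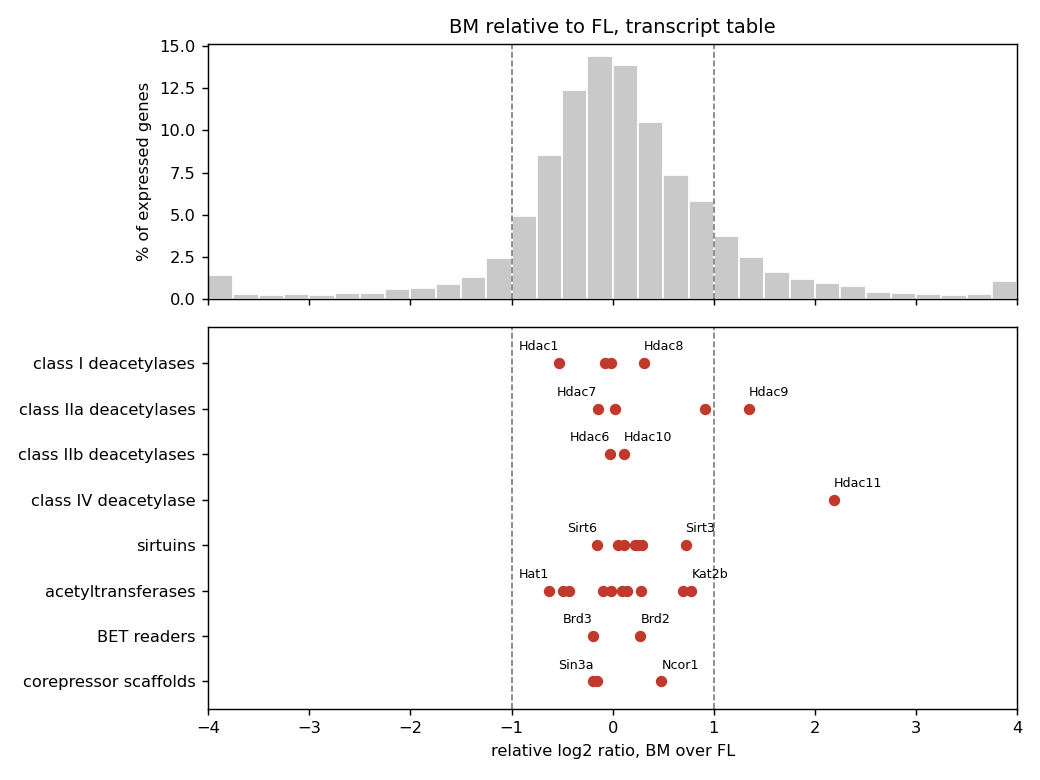
Upper panel, the share of the 12220 expressed genes in bins of relative log2 ratio of BM over FL, with all values past the axis held in the end bins; lower panel, the 33 genes by role on the same axis, with the lowest and highest of each role named. Dashed lines mark 2-fold; Hdac9 at 1.35 and Hdac11 at 2.19 lie beyond the upper line and no gene lies beyond the lower.

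The acetyltransferases, which write the mark, included no gene at 2-fold: of 10, 5 had ratios above zero and 5 below. Hat1, which acetylates newly made histone H4 before it is built into chromatin, had the lowest ratio of the whole set, at 48.6 FPKM in BM and 75.1 FPKM in FL (relative log2 ratio -0.63). The part of the lower proliferation genes in the Hat1 value was not tested. Kat8, which acetylates H4 lysine residues as MOF, was at 15.0 FPKM in BM and 21.1 FPKM in FL (-0.49). Kat2a and Kat2b encode the paralogous coactivators GCN5 and PCAF and had ratios of opposite sign. Kat2a was at 42.6 FPKM in BM and 57.5 FPKM in FL (-0.44). Kat2b was at 13.3 FPKM in BM and 7.70 FPKM in FL (0.78). The level of Kat2a was thus 3.20 times that of Kat2b in BM and 7.47 times in FL, a shift in balance exceeded only by that of Hdac4 and Hdac9 among the 9 paralogue pairs compared.

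The genes of CBP and p300, coactivators that acetylate histones at enhancers, were nearly alike in both columns. Crebbp was at 13.5 FPKM in BM and 12.6 FPKM in FL (0.09) and Ep300 at 14.5 FPKM in BM and 14.6 FPKM in FL (-0.02). Kat6a, which encodes the stem cell factor MOZ, was at 20.04 FPKM in BM and 16.5 FPKM in FL (0.28), and its paralogue Kat6b at 8.39 FPKM in BM and 5.11 FPKM in FL (0.70). Kat7, which encodes HBO1, was at 40.7 FPKM in BM and 36.7 FPKM in FL (0.14). Kat5, which encodes the TIP60 acetyltransferase, was at 15.0 FPKM in BM and 15.9 FPKM in FL (-0.09). Within the MYST enzymes, Kat5 to Kat8, the order from Kat7 as highest to Kat6b as lowest was shared by both columns at its ends. The summed level of the 10 acetyltransferases was 232 FPKM in BM and 263 FPKM in FL.

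By sums over all linked transcripts, class I deacetylases, the main nuclear erasers, were the most abundant deacetylase class of the set in FL. In BM they were second to the sirtuins by these sums, which include transcripts not annotated as protein coding. In BM, protein-coding transcripts held 1.94 of 15.6 FPKM for Sirt4 and 14.9 of 19.3 FPKM for Hdac8. The order in BM is therefore not shown for coding transcripts. Their summed level was 226 FPKM in BM and 264 FPKM in FL, against 239 FPKM in BM and 195 FPKM in FL for the 7 sirtuins. Hdac1 was at 88.1 FPKM in BM and 127 FPKM in FL (-0.53). It was the most abundant gene of the set in FL, and in BM it stood at a level close to that of Brd2 at 88.5 FPKM. Its partner Hdac2, which shares the same complexes, was at 71.7 FPKM in BM and 75.2 FPKM in FL (-0.08). Hdac1 was therefore 1.23 times Hdac2 in BM and 1.68 times in FL. Hdac3, the catalytic subunit of NCOR complexes, was at 46.7 FPKM in BM and 46.9 FPKM in FL (-0.01). Hdac8, whose protein deacetylates the cohesin subunit SMC3, was at 19.3 FPKM in BM and 15.5 FPKM in FL (0.31).

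Class IIa deacetylases, signal-responsive corepressors that move between nucleus and cytoplasm, spread widely around this pattern. Hdac5 was at 47.9 FPKM in BM and 25.3 FPKM in FL (0.91), just inside the 2-fold limit. Hdac9 was at 2.23 FPKM in BM and 0.811 FPKM in FL (1.35), the lowest gene of the set in both columns, and its value rests on 1 linked transcript of 10 annotated. Hdac4 was at 6.89 FPKM in BM and 6.74 FPKM in FL (0.02), and Hdac7 at 22.5 FPKM in BM and 24.9 FPKM in FL (-0.15). By these sums Hdac5 and Hdac7 were at almost the same level in FL, a ratio of 1.02, whereas Hdac5 was 2.13 times Hdac7 in BM. Over protein-coding transcripts alone Hdac5 was at 18.4 FPKM in BM and 11.1 FPKM in FL. Hdac7 was then at 19.8 FPKM in BM and 21.5 FPKM in FL, so Hdac5 exceeded it in neither column. The FL sum of Hdac7 also lies below its gene table value of 41.8 FPKM under the header BM. Hdac4 was 3.10 times Hdac9 in BM and 8.31 times in FL. The class IIb genes differed little. Hdac6, whose protein acts on tubulin in the cytoplasm, was at 11.4 FPKM in BM and 11.6 FPKM in FL (-0.03), and Hdac10, whose protein deacetylates polyamines, was at 14.5 FPKM in BM and 13.4 FPKM in FL (0.11).

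Hdac11, the only class IV deacetylase and an enzyme best known for removing longer fatty acyl groups from lysine, had the largest ratio of the set. It was at 15.6 FPKM in BM and 3.32 FPKM in FL, a 4.69-fold difference of levels (relative log2 ratio 2.19), which placed it above 96.4% of all expressed genes by ratio. In level it stood at percentile 55.2 of expressed genes in BM and 22.2 in FL. The gene table listed it at 3.53 FPKM under the header BM and 3.13 FPKM under FL. The value under BM there nearly repeats the FL sum, as it did for most genes, and is no second measurement. Neither gene table column could be taken as adult, so the BM value of 15.6 FPKM stands without a check. The main transcript, Hdac11-201, carried the difference at 11.7 FPKM in BM and 2.82 FPKM in FL. Exons of 2 genes annotated on the opposite strand overlap it, of which Gm14573 was listed at 0 in both columns; Gm44002 was not linked.

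The promoter windows of Hdac11 and Hat1 are shown because these genes bound the range of ratios in the set. Each window runs from 250 bases before to 50 bases after the start, from RefSeq on GRCm38.p6, and both lie on the plus strand. Hdac11 lies at chr6:91156565-91156864 and Hat1 at chr2:71389010-71389309. Capitals mark matches on either strand to any of the 6 motifs spelled out after the sequences.
Hdac11: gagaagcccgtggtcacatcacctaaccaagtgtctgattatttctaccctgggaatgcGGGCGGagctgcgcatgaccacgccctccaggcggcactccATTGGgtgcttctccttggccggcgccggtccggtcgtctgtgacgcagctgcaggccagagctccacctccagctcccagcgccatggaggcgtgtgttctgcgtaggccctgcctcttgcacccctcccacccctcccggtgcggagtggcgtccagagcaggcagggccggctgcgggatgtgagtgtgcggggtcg
Hat1: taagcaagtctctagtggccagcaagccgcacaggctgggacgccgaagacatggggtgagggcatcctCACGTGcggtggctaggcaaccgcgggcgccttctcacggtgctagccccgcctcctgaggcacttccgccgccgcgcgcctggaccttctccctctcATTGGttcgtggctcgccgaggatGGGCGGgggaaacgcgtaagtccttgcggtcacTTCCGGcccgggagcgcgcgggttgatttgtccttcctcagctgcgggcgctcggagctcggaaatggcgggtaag
Both windows held a GC box and a CCAAT box, and that of Hat1 also held an E-box and an ETS core; none of these matches overlapped another. Both were 66.7% G and C, with 22 CpG dinucleotides in Hdac11 and 32 in Hat1, against a median of 7 over all 32851 windows. Windows were matched for 29 of the 33 members, giving 43 windows, since some genes have several starts. Their median CpG count was 20. The GC box, searched as GGGCGG, was found in 27 of 43 windows (62.8%) against 35.7% of all windows. The ETS core, searched as CCGGAA, was found in 14 windows (32.6%) against 14.9% of all windows. The CCAAT box, searched by those 5 letters, was found in 16 windows (37.2%) against 37.4% of all windows. The GATA site, searched as AGATAA, was found in 2 windows (4.65%) against 11.2% of all windows. The E-box, searched as CACGTG, was found in 4 windows (9.30%) against 7.15% of all windows. The cyclic AMP response element, searched as TGACGTCA, was found in 0 windows against 1.79% of all windows. The CpG-poor exceptions include both windows of Hdac9, with 0 and 3 CpG dinucleotides and no match to any of the 6 motifs. These matches describe letters in the window only.

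Sirtuins, which couple deacylation to NAD, included no gene at 2-fold. Ratios above zero were held by 6 of 7, beside 50.8% of all expressed genes, and those of Sirt4 and Sirt7 were small and differed in sign with the choice of transcripts. Sirt3, the main mitochondrial deacetylase, was at 79.2 FPKM in BM and 47.8 FPKM in FL (0.72) and was the most abundant sirtuin gene in BM. Its exons overlap those of Ric8a on the opposite strand, which was at 46.9 FPKM in BM and 29.3 FPKM in FL, and of Psmd13, at 47.9 FPKM in BM and 72.1 FPKM in FL. The library kit named in the protocol is not described there as keeping strand, so reads in the shared exons cannot be assigned with certainty. Sirt7, a nucleolar enzyme, was at 66.1 FPKM in BM and 60.7 FPKM in FL (0.12), the highest sirtuin sum in FL. Most of that FL sum lay in Sirt7-202, a model of 427 nt at 37.0 FPKM, beside 18.8 FPKM for Sirt7-201. Exons of Sirt7 overlap those of Mafg on the same strand, which was at 28.4 FPKM in BM and 18.9 FPKM in FL. The effect of this overlap was not tested. Sirt1, the nuclear sirtuin studied most in stem cell ageing, was far less abundant at 10.04 FPKM in BM and 8.16 FPKM in FL (0.29). Sirt2, largely cytoplasmic, was at 37.9 FPKM in BM and 32.5 FPKM in FL (0.22). Sirt6, a chromatin enzyme of telomeres and DNA repair, was at 20.5 FPKM in BM and 22.8 FPKM in FL (-0.16), the only sirtuin with a ratio below zero. The mitochondrial genes Sirt4 and Sirt5 were at 15.6 and 9.51 FPKM in BM against 15.0 and 7.94 FPKM in FL.

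The bromodomain readers were abundant in both columns. Brd2 was at 88.5 FPKM in BM, the highest sum of the set there, and 72.8 FPKM in FL (0.27). Over protein-coding transcripts alone Brd2 was at 70.6 FPKM in BM and 63.5 FPKM in FL (0.15). By that measure it lay below Hdac1, at 81.3 FPKM in BM. Brd3 was at 41.3 FPKM in BM and 47.1 FPKM in FL (-0.20). Exons of Brd2 overlap those of the MHC class II gene H2-DMa on the opposite strand, which was at 48.2 FPKM in BM and 6.91 FPKM in FL. The effect of this overlap on Brd2 was not tested. Among corepressor scaffolds, Ncor1, which activates HDAC3, was at 78.8 FPKM in BM and 56.2 FPKM in FL (0.48). Sin3a was at 31.8 FPKM in BM and 36.3 FPKM in FL (-0.19), and Sin3b at 79.9 FPKM in BM and 88.4 FPKM in FL (-0.15). The balance of the summed Sin3 paralogues was nearly the same, Sin3b being 2.51 times Sin3a in BM and 2.44 times in FL. Most of Sin3b lay in a short model, Sin3b-202, of 1024 nt. The full-length Sin3b-201 was at 11.4 FPKM in BM and 9.49 FPKM in FL. This is below the sum of 3 Sin3a transcripts with the same coding exons, at 14.1 FPKM in BM and 18.9 FPKM in FL. The excess of Sin3b was thus not seen in its full-length transcript. The summed acetyltransferase level was 0.395 times the summed level of all 18 deacetylases in BM and 0.482 times in FL. These sums include enzymes of mitochondria and cytoplasm, such as Sirt3 and Hdac6, and transcripts not annotated as protein coding. They do not measure the balance of writing and erasing on histones.

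Sums can hide differences between transcripts, so the 212 linked transcripts of the set were examined. The dominant transcript differed between BM and FL in 4 of the 27 members with at least 2 linked transcripts (14.8%), beside 13.7% of 7332 such genes. These were Sirt6, Sirt7, Ncor1 and Sin3a. The median share of a gene's summed level that moved between transcripts was 13.1 percentage points in these 27 members and 11.0 over all such genes. The largest shift was in Hdac6, at 43.1 points. Hdac6-201 and Hdac6-202 have the same coding exons and differ outside them. Hdac6-202 was at 4.60 FPKM in BM and 7.49 FPKM in FL, while Hdac6-201 was at 4.16 FPKM in BM and near 0 in FL (0.000214 FPKM). The summed level of Hdac6 was thus alike in both columns while its estimated split among transcripts was not. Such estimates share reads among overlapping models, so the split between transcripts with the same coding exons is uncertain.

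**Figure D3:**
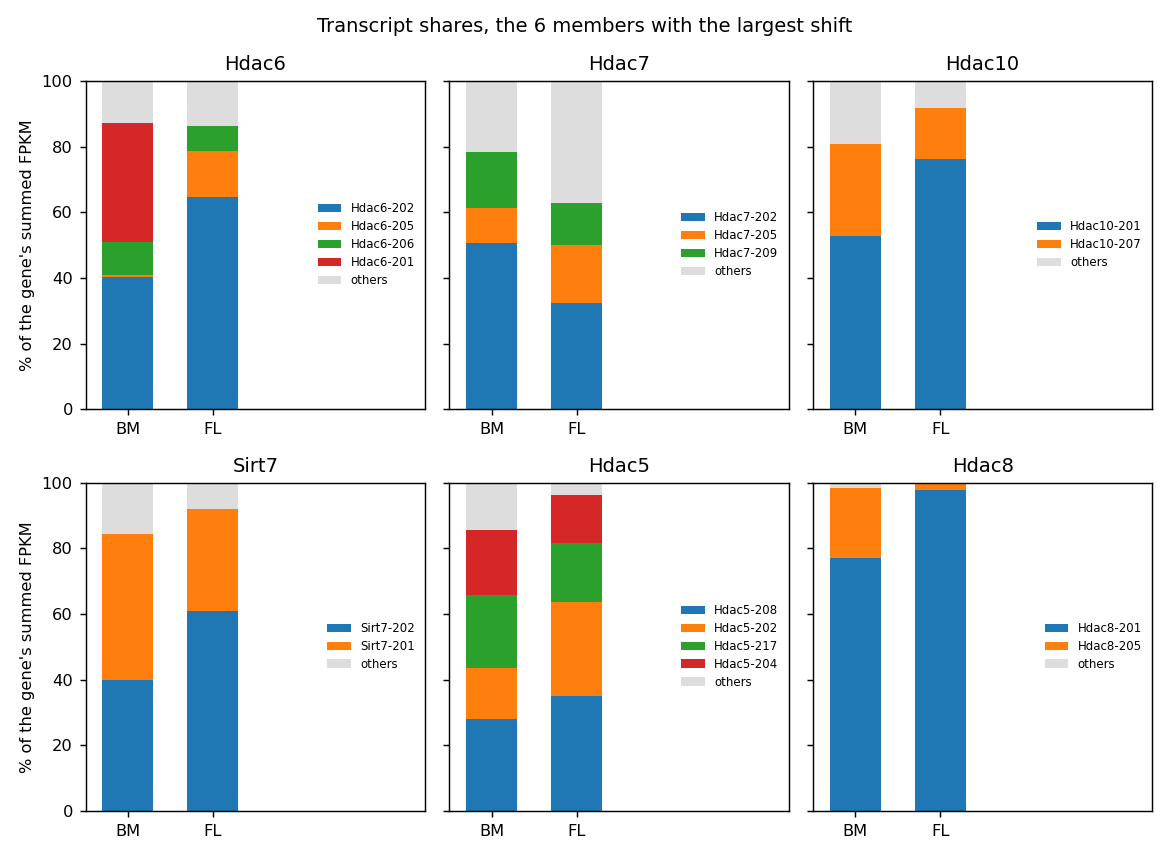
Share of each gene's summed FPKM carried by its transcripts in BM and FL, for the 6 genes with the largest shift; transcripts at 10% or more in either column are coloured and all others are grey. Hdac6-201 takes 36.4% of Hdac6 in BM and almost none in FL, and Hdac8-205 takes 21.4% of Hdac8 in BM and 1.93% in FL.

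Of the set's transcripts not annotated as protein coding, 42 reached 1 FPKM in either column; 17 of them were at least 2-fold higher in BM (40.5%) and 5 lower (11.9%). Among all 8372 such transcripts 37.1% were higher and 16.8% lower, so the shares of the set lie near this background. Transcripts of single genes ran both ways: Brd2-204, not coding, was at 0.363 FPKM in BM and 1.79 FPKM in FL, and Ncor1-219 at 0.132 FPKM in BM and 1.68 FPKM in FL. Hdac8-205, annotated as a target of nonsense-mediated decay, was at 4.13 FPKM in BM and 0.298 FPKM in FL, whereas the coding Hdac8-201 was at 14.9 FPKM in BM and 15.1 FPKM in FL. The Hdac8 difference in the sum therefore lay in Hdac8-205. Brd2-207, likewise annotated as a decay target, was, unlike Brd2-204, at 11.6 FPKM in BM and 3.03 FPKM in FL. Hdac10-207, with a retained intron, was at 4.06 FPKM in BM and 2.10 FPKM in FL, while the coding Hdac10-201 was at 7.68 FPKM in BM and 10.2 FPKM in FL. Of Hdac5, protein-coding transcripts made up 38.3% of the sum in BM and 43.7% in FL. The short non-coding Hdac5-208, of 422 nt, was its dominant transcript, at 13.5 FPKM in BM and 8.90 FPKM in FL. Its longer coding transcripts parted: Hdac5-204 was at 9.47 FPKM in BM and 3.68 FPKM in FL, and Hdac5-202 at 7.43 FPKM in BM and 7.21 FPKM in FL. Sirt4 was mostly intron-retaining RNA, with protein-coding transcripts at 12.4% of the sum in BM and 13.6% in FL.

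Among coding transcripts, order differed between the columns in some genes and was shared in others. Sirt7-201, with 1206 coding bases, was at 29.3 FPKM in BM and 18.8 FPKM in FL, and the truncated model Sirt7-202, with 363, was at 26.5 FPKM in BM and 37.0 FPKM in FL. In Sin3a the dominant transcript was Sin3a-206 in BM, at 8.09 FPKM there and 6.12 FPKM in FL, and Sin3a-204 in FL, at 6.54 FPKM in BM and 9.25 FPKM in FL. Sin3a-204 shares its coding exons with Sin3a-201 and Sin3a-208, and these 3 together, at 14.1 FPKM in BM and 18.9 FPKM in FL, exceeded Sin3a-206 in both columns. The following genes had the same order of the named transcripts in both columns, each transcript taken singly. Ncor1-201, which holds the long reading frame of 7362 bases, was second to Ncor1-222 among coding transcripts, at 13.5 FPKM in BM and 6.78 FPKM in FL. Another transcript with the same coding exons as Ncor1-201 was at 4.12 FPKM in BM and 2.92 FPKM in FL. With it added, this reading frame exceeded Ncor1-222 in BM, at 14.9 FPKM, but not in FL, at 13.3 FPKM. Sirt3-202 was at 49.4 FPKM in BM and 22.4 FPKM in FL, beside Sirt3-205 at 21.1 FPKM in BM and 17.1 FPKM in FL. Most of Sin3b lay in Sin3b-202, a model of 1024 nt, at 68.5 FPKM in BM and 78.9 FPKM in FL, and the full-length Sin3b-201 was at 11.4 FPKM in BM and 9.49 FPKM in FL. Such estimates share reads among overlapping models, and short models carry high FPKM per fragment. Summed over protein-coding transcripts alone, the same 2 genes, Hdac11 and Hdac9, were called higher and none lower.

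The gene table served to check whether the linked transcripts account for each gene. Its column headed BM was set against the FL sums, after the median log2 offset of 0.07 was taken off. For 24 of 33 members the values were within 10%, beside 78.9% of 11077 genes. Against the BM sums, 9 of 33 were within 10%, beside 16.8% of 10695 genes. Values over 1.5-fold apart were found for Kat5 and Hdac7, beside 9.38% of all genes compared. Kat5 was at 28.5 FPKM in the gene table and 15.9 FPKM in the FL sum, with 1 of its 12 annotated transcripts linked. Its exons overlap those of Rnaseh2c on the opposite strand, at 69.8 FPKM in the gene table column headed BM. Hdac7 was at 41.8 FPKM in the gene table and 24.9 FPKM in the FL sum, with 12 of 13 transcripts linked. Its exons overlap those of Slc48a1 on the opposite strand, at 56.1 FPKM in that column. The part of linking or overlap in either value was not tested. Hdac4 lay just inside the limit, at 4.73 FPKM in the gene table and 6.74 FPKM in the FL sum, and Ep300 was at 21.04 FPKM in the gene table and 14.6 FPKM in the FL sum. Brd2 was at 97.3 FPKM in the gene table and 72.8 FPKM in the FL sum, with 10 of 19 transcripts linked. Ncor1 was at 73.3 FPKM in the gene table and 56.2 FPKM in the FL sum. The ratios of Kat5, Hdac7, Hdac4, Ep300, Brd2 and Ncor1 are not shown to describe the whole gene. For Hdac11 and Hdac9 the gene table value and the FL sum were within 1.01 and 1.11 times. The check covers the FL sums only, as neither gene table column could be taken as adult. The BM sums, and so that part of every ratio, were not checked.

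**Figure D4:**
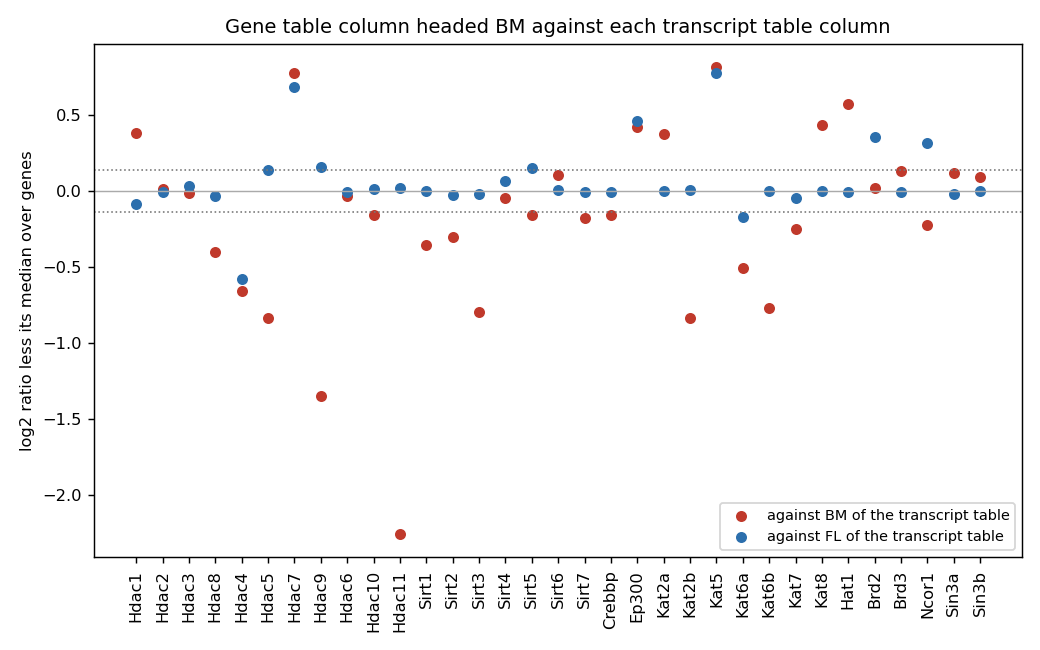
Log2 ratio of the gene table column headed BM to each column of the transcript table for the 33 genes, less the median of that ratio over all genes; red points are against BM, blue points against FL, and dotted lines mark 10%. The blue points hug zero for 24 genes, with Kat5 and Hdac7 above the others, while the red points scatter down to Hdac11.

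Within the gene table itself 1 member was called higher under the header BM and 2 lower, beside 12.3% higher and 23.6% lower among 13834 expressed genes. As Lin28b was high in both of these columns, this comparison is not one of stages. Sirt3 was the higher gene, at 49.4 FPKM under BM and 11.2 FPKM under FL (relative log2 ratio 1.89, less a median gene of 0.24). Hdac7, a class IIa enzyme, was lower, at 41.8 FPKM under BM and 88.0 FPKM under FL (-1.31). Hdac9 was at 0.945 FPKM under BM and 2.72 FPKM under FL (-1.67), opposite in sign to its ratio in the transcript table. The summed level of 8 endothelial markers was 65.6 FPKM under BM and 2172 FPKM under FL, and all 8 were lower. Other lists ran the opposite way: the 10 neutrophil and monocyte markers summed to 655 FPKM under BM and 135 FPKM under FL, with 9 higher, and the 12 erythroid markers to 378 FPKM under BM and 119 FPKM under FL, with 8 higher. The macrophage markers summed to 280 FPKM under BM and 710 FPKM under FL, with 7 lower and 3 higher. The part of any of these in the member values was not tested. Without centring Kat2b, Sirt5 and Sirt7 were called higher as well. Values under BM here nearly equal the FL sums used above, so the ratios of the tables are not independent.

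Other subunits of acetylation complexes were also mostly within 2-fold. Of 75 further genes listed, 74 were found and all of these were expressed; 5 (6.76%) were higher and 2 (2.70%) lower in BM, with a median of -0.02. Both shares lie under the 13.3% and 8.82% of all expressed genes. For some genes counted as within 2-fold the FL sum lay well below the gene table value under the header BM. These values were 10.2 and 230 FPKM for Rbbp4, 19.0 and 41.6 FPKM for Ing1, and 23.2 and 47.1 FPKM for Meaf6. Their ratios are not shown to describe the whole gene. Ncoa1, a nuclear receptor coactivator gene, was at 6.28 FPKM in BM and 1.28 FPKM in FL (2.21), although the gene table listed 2.32 FPKM where the FL sum was 1.28 FPKM, with 1 linked transcript. Arid4a, a subunit gene of the SIN3 complex, was at 31.1 FPKM in BM and 12.4 FPKM in FL (1.32). Rcor3, a corepressor gene of the CoREST family, was at 8.21 FPKM in BM and 3.30 FPKM in FL (1.28). Jade2, a scaffold gene of HBO1 complexes, was at 14.6 FPKM in BM and 6.37 FPKM in FL (1.17). Brdt, the testis member of the bromodomain family, was at 1.23 FPKM in BM and 0.392 FPKM in FL (1.43). The lower genes were Sap18, a SIN3-associated protein gene, at 84.5 FPKM in BM and 175 FPKM in FL (-1.05), and Tada2b, an adaptor gene of the SAGA complex, at 2.19 FPKM in BM and 5.27 FPKM in FL (-1.24).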

How the data were processed

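The 2 deposited tables hold FPKM values that the authors made per gene and per transcript. Per the submitters' processing notes, TopHat, Cufflinks, featureCounts of Subread and edgeR were used with mm9; the sources used here give neither their roles and versions nor the annotation release. Read lengths and library kits come from the labels' protocols. No column carries a replicate number, and low values showed no steps of whole reads, so each was read as the authors' mean with unknown depth, and no test, interval or SD is given. Cufflinks estimates are shared among overlapping transcripts.

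Transcripts were linked to genes by Ensembl identifier in GENCODE M21, whose build differs from mm9; 76507 of 87641 were linked, and unlinked ones held 10.9% of FPKM in BM and 10.4% in FL. Linked FPKM were summed per gene. The pseudocount was 0.1, the expression limit 1 FPKM and the call limit 2-fold after centring on the median gene at 1 FPKM or more in both columns. Transcripts named are at 10% or more of a gene's sum in either column, except Brd2-204 and Ncor1-219, chosen after their values were seen. The ratio calculation was tested on simulated data. Python 3.11.15, numpy 2.4.6, pandas 2.3.3 and matplotlib 3.10.9 were used. The members, lists and settings were chosen with earlier results of these data known. All 33 members and the called genes of the wider list were to be named. Rbbp4, Ing1 and Meaf6 were named besides, for the check against the gene table only. Alternatives covered the pseudocount, centring, the filter on low values, the fold limit and the choice of transcripts.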

Additional observations from a re-analysis of the deposited data

How the results depend on the processing

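The 2 members called higher in BM of the transcript table, and the absence of lower members, held without centring, under upper-quartile scaling, with a pseudocount of 0.01, without a filter, with the gene table value in place of the FL sum and, in a setting added after the data were seen, over protein-coding transcripts only. The count was 1, Hdac11, with a pseudocount of 1 FPKM, with genes at 1 FPKM in both columns, at 5 FPKM in either, and at 3-fold; at 1.5-fold it was 6 higher and 1 lower, beside 23.6% and 19.1% of all expressed genes, and at 3-fold the background was 6.48% and 4.88%. The single highest transcript of each gene gave 3 higher members, adding Sirt3, beside 14.5% higher and 9.06% lower among all genes tested so. For the wider list of 5 higher and 2 lower genes, the 1.5-fold limit gave 9 and 6, the 3-fold limit 1 and 0, the single highest transcript 2 and 0, the gene table value 4 lower and the pseudocount of 1 gave 1 lower. Among all genes tested, 14.4% were higher and 13.1% lower with the gene table value. With the pseudocount of 1 these shares were 8.92% and 6.6%. They were 9.2% and 5.43% with genes at 1 FPKM in both columns. In the gene table, 1 higher member became 4 without centring and 3 under upper-quartile scaling, and 2 lower members became 1 with genes at 1 FPKM in both columns. No called member changed sign under the alternatives run. Among members within 2-fold, the sign differed for Hdac3, Hdac6 and Brd2 with the gene table value, for Hdac10, Sirt4 and Ep300 over protein-coding transcripts, and for Hdac7, Hdac10, Sirt7 and Ep300 with the single highest transcript. Over protein-coding transcripts alone the dominant transcript also differed in 4 members, but Hdac5 and Sirt4 stood in place of Sirt6 and Ncor1, beside Sirt7 and Sin3a in both. No paired analysis was possible because the columns carry no replicate numbers, and no replicate could be left out for the same reason. Depth is unknown, so the precision of low values such as those of Hdac9 cannot be given.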
